A study of Homo sapiens with 6 samples.

Results

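The neurotrophin system was examined in RNA sequencing of BT549, a human breast cancer cell line, through 7 genes: the neurotrophin receptor gene NGFR, the ligand genes BDNF and NTF3, the receptor kinase genes NTRK2 and NTRK3, the co-receptor gene SORT1 and MAGED1, whose product binds the NGFR protein inside the cell. These are 7 of the 19923 genes in the deposited table, found by their gene symbols. There were 3 libraries of BT549 cells labelled control and 3 of BT549 cells labelled ENL. The labels do not spell out ENL, give no dose, duration or vehicle, and leave unstated whether each library is a culture of its own. The question is how the level of each gene differed between the cells labelled ENL and the control cells.

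Neurotrophins are secreted growth factors that act as pairs of identical chains. Each has a preferred receptor kinase of the Trk family (TrkB, from NTRK2, for the product of BDNF, and TrkC, from NTRK3, for that of NTF3), while NGFR, also called p75NTR, belongs to the tumour necrosis factor receptor superfamily and binds all of them. NGFR can act beside Trk kinases in survival signalling, or together with sortilin, the product of SORT1, as a receptor for uncleaved proneurotrophins in cell death signalling. In the breast, NGFR is known as a marker of basal and myoepithelial cells, and elsewhere of neural crest and Schwann cells.

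The members were proposed with results of these same libraries in view, so their differences between the groups are given as a description, without a test. Levels are in CPM, a library-size scaled count, after trimmed mean scaling (TMM), and a log2 fold change is ENL against control from the fit over all genes, with its standard error (SE, n = 3 per group). The library totals were 74457932 to 85310759 units of estimated count, and 1 sequenced fragment was worth about 4 units. ENL libraries 1 and 2 were close together and ENL library 3 far from both on the second principal component, which held 14.3% of the variance (scores of -22.0, -26.3 and 55.8). Of the marker genes checked, the epithelial EPCAM and CDH1 averaged at most 0.122 and 0.205 CPM in either group, and PGR was at 0 in every library. The summed level of 7 mesenchymal markers was 3250 to 3970 CPM over the control and 6020 to 6920 over the ENL libraries, most of it VIM (2744 and 5949 CPM on average). VIM, FN1 and CDH2 rose, SPARC fell (331 to 92.7 CPM) and the other 3 did not pass. These are 42.9% higher and 14.3% lower, against 20.0% and 18.4% of all genes tested. Several defining markers of the labelled mammary epithelium were near 0, while others were detected. Among these were ERBB2 (78.4 CPM in control and 64.45 in ENL) and GATA3 (30.1 and 31.6). The keratin genes KRT8 (15.8 and 38.0) and KRT18 (26.3 and 24.0) were detected too. Of 13 such markers 11 were tested. KRT7 and KRT8 rose, and ERBB2 and KRT5 fell (18.2% each way, against 20.0% and 18.4% of all genes tested). The basal keratin genes KRT5, KRT14 and KRT17 averaged 6.12, 3.55 and 0.890 CPM in control and 1.64, 1.01 and 0.366 in ENL. Control library 2 was the highest for each (11.1, 8.84 and 2.57 CPM), and KRT14 and KRT17 did not pass. The libraries are bulk samples, in which fewer cells of a kind and less RNA per cell cannot be told apart.

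NGFR had by far the widest gap of the 7 genes, a low transcript in control cells and an abundant one in ENL cells. It lies on chromosome 17 (49495293 to 49515017, plus strand, GRCh38). Its level was 2.45, 3.55 and 3.06 CPM in control libraries 1, 2 and 3 and 102, 104 and 95.1 CPM in ENL libraries 1, 2 and 3. The lowest ENL library was thus far above the highest control library, and the ENL libraries lay close together. The means were 3.02 ± 0.554 (SD, n = 3) and 101 ± 4.84 CPM, a log2 fold change of 5.06 ± 0.16 or 33.3-fold. Only 12 of the 14086 genes tested had a higher log2 fold change. Counted in units, NGFR had 214 to 288 per control library and 6978 to 7900 per ENL library, so the control level rested on far fewer fragments. Its relative spread was wider there (SD of log2 CPM 0.269 in control and 0.0702 in ENL). Exons of AC015656.1 and AC006487.1 on the opposite strand overlap those of NGFR over 924 and 202 bases, and no source used here says whether the counting used strand.

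**Figure D1:**
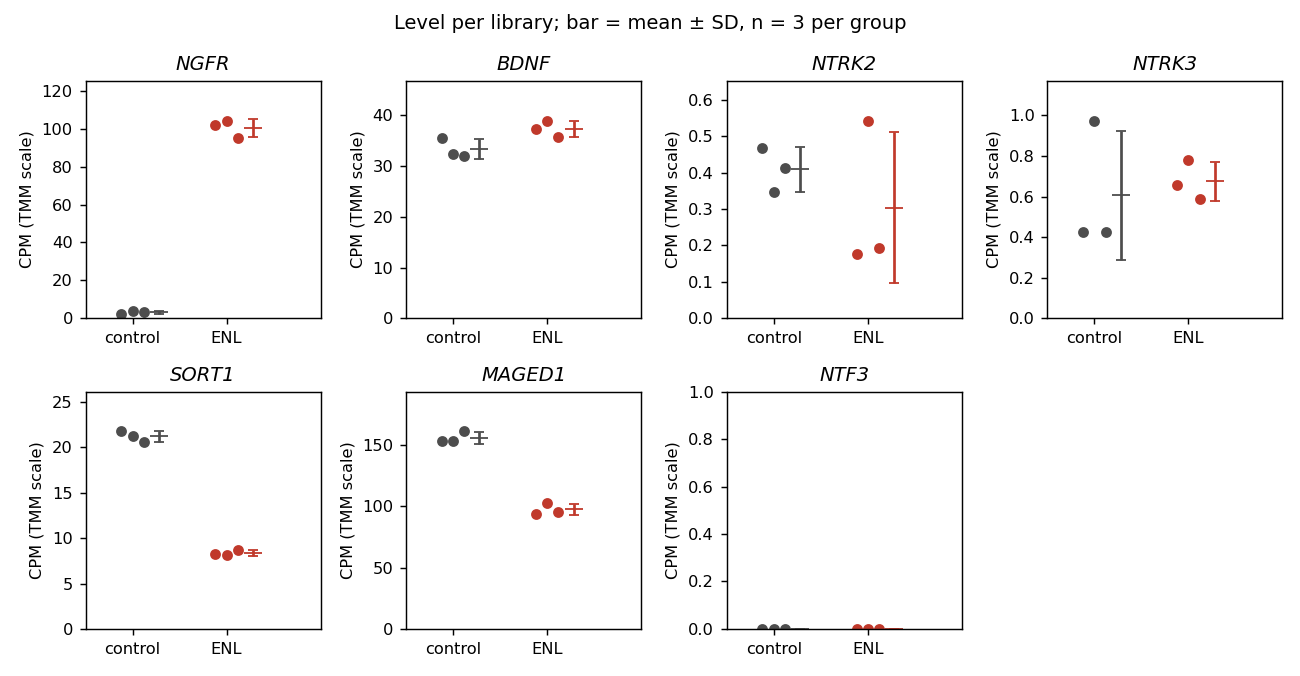
Level in CPM (TMM scale, axis from 0) of the 7 members in each of the 3 control and 3 ENL libraries, with bars for the mean ± SD. The 3 ENL libraries lie above all control libraries for NGFR and BDNF and below them for SORT1 and MAGED1, the groups overlap for NTRK2 and NTRK3, and NTF3 is at 0 in all 6.

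Of the ligands, BDNF was well expressed in both groups at nearly the same level. BDNF, on chromosome 11 (27654893 to 27722058, minus strand), encodes brain-derived neurotrophic factor. It was at 35.6, 32.4 and 32.0 CPM in the control libraries and at 37.4, 39.0 and 35.8 CPM in the ENL libraries. The groups touched without overlapping, since the highest control and the lowest ENL library differed by less than the spread within either group. The log2 fold change was 0.17 ± 0.09, with a 95% interval from -0.05 to 0.38, and it was -0.04 when libraries were scaled by their totals alone, so no direction can be given. BDNF-AS, a gene on the opposite strand, shares 701 exon bases with it.

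NTF3, on chromosome 12 (5432112 to 5521536, plus strand), which encodes neurotrophin-3, had 0 units in all 6 libraries. A count of 0 allows up to 3 fragments, which corresponds to 0.137 to 0.176 CPM in a single library and to 0.0473 CPM over the control and 0.0547 CPM over the ENL libraries. These limits cover counting error only. NTF3 was therefore not tested.

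The Trk receptor kinase genes were at the edge of detection in both groups. NTRK2, on chromosome 9 (84668551 to 85027070, plus strand), had 41, 28 and 35 units in the control libraries and 12, 37 and 16 in the ENL libraries, at most about 10 fragments each. In CPM this was 0.469, 0.346 and 0.412 against 0.176, 0.543 and 0.193. ENL library 2 held the highest value of all 6 and the other ENL libraries the lowest ones. The log2 fold change was -0.43 ± 0.58, and without ENL library 2 it was -1.14.

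NTRK3, on chromosome 15 (87859751 to 88256768, minus strand), had 37, 79 and 36 units in control and 45, 53 and 49 in ENL, or 0.423, 0.975 and 0.424 CPM against 0.659, 0.778 and 0.590 CPM. Control library 2 was the highest and the other control libraries were the lowest. The log2 fold change of 0.15 ± 0.46 came to 0.67 without control library 2, and to -0.05 without control library 1, without control library 3 or with scaling by library totals. A difference of either Trk gene was not detectable at this depth, and the 95% intervals (-1.81 to 0.95 for NTRK2 and -0.93 to 1.24 for NTRK3) reach past a 2-fold change, downward for NTRK2 and upward for NTRK3. The table gives 1 value per gene, so full-length and truncated Trk receptors, which both genes make, could not be separated.

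SORT1 and MAGED1, the genes for partners of the NGFR protein, were both lower in ENL, opposite to NGFR itself. SORT1, on chromosome 1 (109309568 to 109397951, minus strand), encodes sortilin, a sorting receptor that also carries neurotrophins through the secretory pathway. It was at 21.8, 21.2 and 20.6 CPM in the control libraries and at 8.22, 8.10 and 8.69 CPM in the ENL libraries. Each group was tight and the gap between them wide. The means were 21.2 ± 0.575 and 8.34 ± 0.313 CPM, a log2 fold change of -1.35 ± 0.10, with control 2.54 times as high as ENL.

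MAGED1, on the X chromosome (51803007 to 51902357, plus strand), encodes an adaptor also known as NRAGE that binds NGFR and is known for a role in its death signalling. It was the most abundant member in control and close to NGFR in ENL, at 153, 153 and 161 CPM in control libraries 1, 2 and 3 and at 93.9, 103 and 95.4 CPM in ENL libraries 1, 2 and 3. Every ENL library was below every control library. The log2 fold change was -0.68 ± 0.07, with control 1.60 times as high as ENL.

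The sequences just before the annotated starts of SORT1 and MAGED1 are shown because these are the members that were lower together. They are from RefSeq (GRCh38.p14), run 5′ to 3′ on the strand of the gene, and end before the first base that GENCODE 29 places in an exon. Capitals mark a GC box (GGGCGG on either strand), the site of SP1-type factors. Each gene has 2 starts in that table. Both are shown for MAGED1, and only the upstream one for SORT1, since at the downstream one a GENCODE exon leaves 28 bases. In the SORT1 stretch (chr1:109397952-109398168, minus strand) and the MAGED1 stretches (chrX:51802826-51803006 for the upstream start and chrX:51893373-51893532 for the downstream one, plus strand) the letters are as follows.
SORT1: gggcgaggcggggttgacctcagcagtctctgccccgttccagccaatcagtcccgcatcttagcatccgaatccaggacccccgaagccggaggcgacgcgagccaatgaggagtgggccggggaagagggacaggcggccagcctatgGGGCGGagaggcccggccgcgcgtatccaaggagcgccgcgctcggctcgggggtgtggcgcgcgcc
MAGED1 upstream start: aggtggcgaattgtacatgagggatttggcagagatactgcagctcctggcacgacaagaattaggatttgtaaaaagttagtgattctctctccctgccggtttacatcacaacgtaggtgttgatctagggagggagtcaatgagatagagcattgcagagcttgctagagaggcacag
MAGED1 downstream start: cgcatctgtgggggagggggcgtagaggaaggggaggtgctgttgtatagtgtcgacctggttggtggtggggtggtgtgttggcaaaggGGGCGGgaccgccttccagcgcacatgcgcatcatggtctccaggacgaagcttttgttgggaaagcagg

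Over the whole 250 bases before each start, the upstream SORT1 promoter had 74% G and C and 32 CpG pairs, against a median of 58% and 11 over the 35116 promoters of the table. It held 3 GC boxes, of which 1 is in the stretch printed. The downstream SORT1 promoter had 42.8% G and C, 2 CpG pairs and 0 GC boxes. The downstream MAGED1 promoter had 61.2% G and C, 17 CpG pairs and 1 GC box, and the upstream one 48.8%, 6 and 0. A GC box was present in 42.6% of all promoters. Neither gene had, at these starts, a TATA box (TATAAA, in 10.7% of all), an AP-1 site (TGANTCA, 6.57%), a cyclic AMP response element (TGACGTCA, 1.65%), an EGR site (GCGNGGGCG, 8.41%) or an E-box (CACGTG, 6.34%), each searched on both strands. The GC box can overlap the EGR site. A match is a description of the letters only, and no promoter was read for NGFR.

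By count, 6 of the 7 members had enough units to enter the fit. In edgeR's quasi-likelihood test 3 of these 6 were below an adjusted p of 0.05 (1 higher and 2 lower). Of all genes tested 38.4% passed, 20.0% higher and 18.4% lower. The groups of libraries did not overlap for 4 of the 6, against 54.0% of all genes tested. Since the members were chosen on this contrast, these counts are no test of the members, and nothing is read from them. The median log2 fold change of the 6 was -0.14 and that of all genes -0.02. Scaling by library totals alone moved the median of all genes to -0.23 and NGFR, SORT1 and MAGED1 to 4.85, -1.55 and -0.88. Over the 15 alternative settings NGFR ranged from 4.85 to 5.19, SORT1 from -1.55 to -1.32 and MAGED1 from -0.88 to -0.65, so these 3 kept their direction in each. Without ENL library 3 they were 5.11, -1.36 and -0.65.

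**Figure D2:**
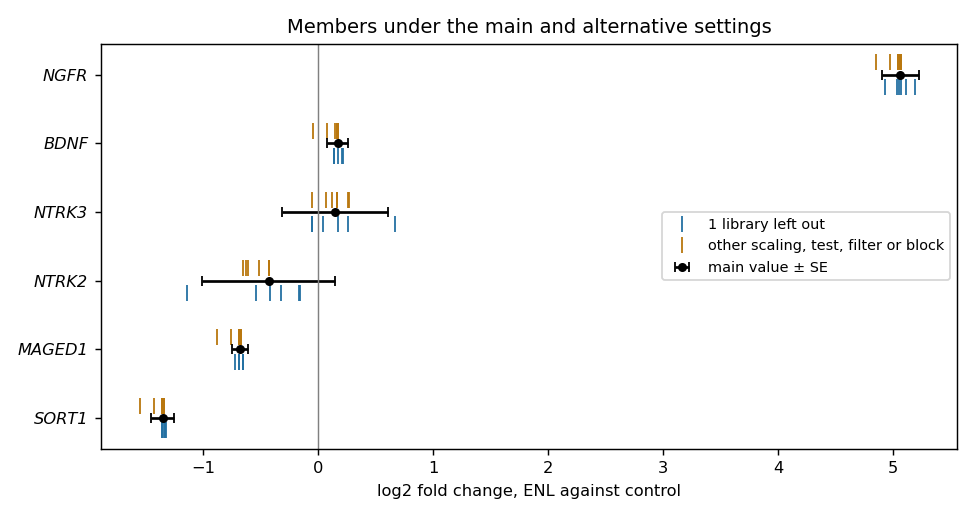
Log2 fold change (x axis, ENL against control) of the 6 members tested, with the main value ± SE as a black point, values with 1 library left out as blue ticks and values under other scalings, tests, filters or the replicate block as orange ticks. NGFR stays near 5 and SORT1 and MAGED1 below 0 throughout, BDNF and NTRK3 fall on both sides of 0, and NTRK2 runs from -1.14 to -0.16.

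Compared per kb of transcript, the order of the genes differed between the groups. With the length of the longest coding transcript, the control libraries ran from MAGED1 (54.1 ± 1.61 CPM per kb) through BDNF (7.0 ± 0.417), SORT1 (3.02 ± 0.0818) and NGFR (0.884 ± 0.162) to NTRK2 (0.0473 ± 0.00715) and NTRK3 (0.0304 ± 0.0159). In ENL the order was MAGED1 (33.9 ± 1.67), NGFR (29.4 ± 1.42), BDNF (7.85 ± 0.334), SORT1 (1.19 ± 0.0446), NTRK2 (0.0352 ± 0.0240) and NTRK3 (0.0338 ± 0.00476). Neighbours in these orders did not overlap between libraries, except NTRK2 and NTRK3, which overlapped in both groups.

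NGFR had a higher level per kb than 20.6% of the tested genes in control and than 83.3% in ENL. For SORT1 the same share was 36.3% in control and 24.5% in ENL, for MAGED1 91.9% and 85.4% and for BDNF 54.1% and 56.3%. The ratio of NGFR to SORT1 per kb was 0.231, 0.344 and 0.305 in the control libraries and 25.6, 26.5 and 22.5 in the ENL libraries, so SORT1 was above NGFR in every control library and below it in every ENL library. The order of the genes depends on the transcript length used, and which transcripts the cells make was not measured. For SORT1 the annotated coding transcripts have a median of 615 bases, against 7028 for the longest. With the median length of the coding transcripts, SORT1 came to 34.5 and 13.6 CPM per kb, NTRK3 to 0.223 and 0.248 and NGFR to 1.64 and 54.7, in control and ENL. NTRK3 is then above NTRK2 and SORT1 above BDNF in both groups, and NGFR is above MAGED1 (35.1) in ENL, while SORT1 still lies above NGFR in control and below it in ENL.

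**Figure D3:**
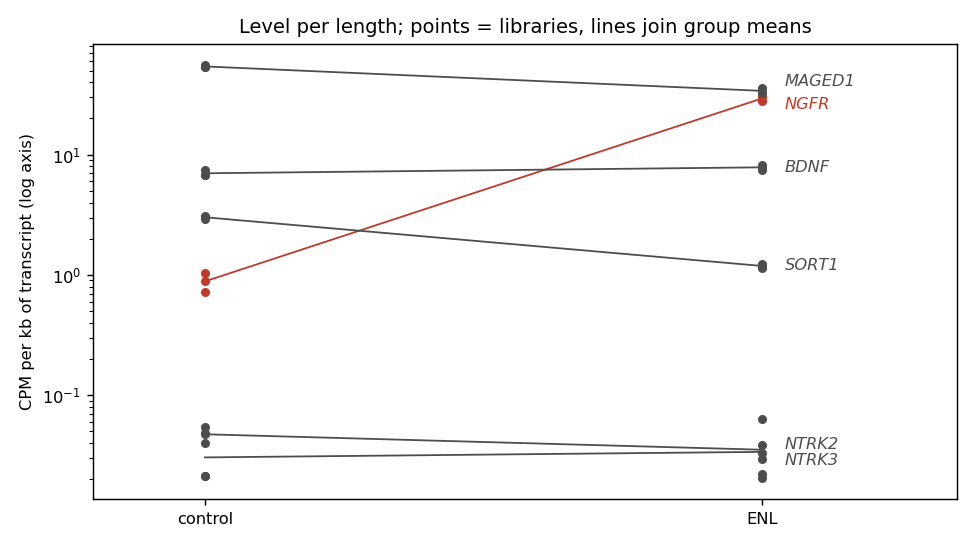
Level in CPM per kb of the longest coding transcript (log axis) in the 3 control and 3 ENL libraries (points), with lines joining the group means, NGFR in red and the other genes in grey. NGFR moves from 0.884 to 29.4, from below SORT1 to just under MAGED1, whereas NTRK2 and NTRK3 stay below 0.1 in both groups.

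Outside the 7 genes, the rest of the neurotrophin pathway was read from 8 lists of 116 genes, drawn from textbook knowledge but with earlier results of these libraries known. Of 106 tested, 21 rose (19.8%, against 20.0% of all genes tested) and 21 fell (19.8%, against 18.4%), and the median log2 fold change was 0.04. Fewer fell without control library 1 (11), control library 3 (11) or ENL library 1 (13). Adjusted p-values here and below come from that same edgeR test, adjusted over all genes by the Benjamini-Hochberg method. Genes other than those the naming rule selects, given to complete counts of 5 or fewer, were chosen after their values were seen.

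Among 8 other ligand and receptor genes of the pathway 6 were tested, and 1 rose and 0 fell in edgeR's test (also 1 and 0 at an unadjusted p below 0.05, in the DESeq2 Wald test and in limma-voom). Of all genes tested 20.0% rose and 18.4% fell. In both groups 5 of the 8 averaged below 1 CPM. NTF4, for neurotrophin-4, which shares 483 exon bases with AC008687.8 on its own strand, averaged 0.229 and 0.245 CPM, and the sortilin relatives SORL1 and SORCS2 had log2 fold changes of -0.84 ± 0.72 and 0.06 ± 0.32. The gene that rose was RTN4R, the Nogo receptor, a partner of NGFR, from 0.128 to 1.18 CPM (log2 fold change 3.19 ± 0.99, adjusted p = 0.0413). RTN4R no longer passed when all genes were kept regardless of count (adjusted p = 0.0543), or when control library 2 or 3 or any 1 ENL library was left out (0.0576 to 0.112).

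KIDINS220, a scaffold of Trk receptors and NGFR, was at 30.3 and 29.8 CPM in ENL libraries 1 and 2 and at 47.1 in ENL library 3, against 43.4, 43.5 and 47.5 in control. Its log2 fold change of -0.33 ± 0.19 did not pass (adjusted p = 0.209), but without ENL library 3 it was -0.56 (adjusted p = 0.00373).

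Of 7 tested genes that cleave proneurotrophins or set that cleavage, 4 fell and 1 rose, with a median log2 fold change of -0.36. These are 57.1% and 14.3% of the list, against 18.4% and 20.0% of all genes tested. PLAT, tissue plasminogen activator, fell from 45.5 ± 6.27 to 17.2 ± 1.53 CPM (log2 fold change -1.40 ± 0.13, adjusted p = 0.000455). The proprotein convertase genes FURIN, PCSK7 and PCSK6 had log2 fold changes of -0.36 ± 0.09, -0.94 ± 0.16 and -1.63 ± 0.48 (adjusted p = 0.0211, 0.00449 and 0.0346). PCSK6 was low, at 1.22 CPM in control and 0.39 in ENL, against 58.7 and 45.9 for FURIN and 52.7 and 27.5 for PCSK7. On the opposite strand PCSK7 shares 3940 exon bases with AP000892.3 and 446 with TAGLN, and PCSK6 shares 1428 with AC023024.1, besides 1214 with AC023024.2 on its own strand. MMP3, a matrix metalloprotease at 1.61 CPM in control and 3.16 in ENL, rose by 0.97 ± 0.30 (adjusted p = 0.0413). The call of FURIN was lost without control library 2 or 3 or ENL library 1 (adjusted p = 0.0662 to 0.083), that of PCSK6 without any 1 control library or ENL library 1 or 3 (0.053 to 0.106), and that of MMP3 without control library 1 or 3 or ENL library 1 or 3 (0.087 to 0.123). Scaling by library totals or the upper quartile also ended the MMP3 call (0.0843 and 0.0542).

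Few of the proteases that cut NGFR itself passed the test, which 20.0% of all genes tested passed as higher and 18.4% as lower. Of the 8 genes for the sheddases ADAM10 and ADAM17 and for the parts of gamma-secretase, 0 rose and 1 fell in edgeR's test (1 and 2 at an unadjusted p below 0.05, 0 and 2 in the DESeq2 Wald test, 0 and 1 in limma-voom). This was PSEN2, a presenilin gene, at 21.5 ± 2.27 CPM in control and 13.2 ± 0.351 in ENL (log2 fold change -0.70 ± 0.12, adjusted p = 0.00385). The other log2 fold changes in this list included -0.26 ± 0.11 for ADAM10 and -0.09 ± 0.12 for ADAM17, which did not pass. ADAM17 shares 1323 exon bases with IAH1 on the opposite strand.

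Among genes for proteins that bind the NGFR tail or carry its signal, 4 of 13 tested rose and 1 fell. These are 30.8% and 7.69%, against 20.0% and 18.4% of all genes tested. SQSTM1, the scaffold p62, rose by 1.69 ± 0.08 on the log2 scale (adjusted p = 3.7e-05). TRAF4 rose from 30.6 ± 3.53 to 88.3 ± 17.6 CPM (1.53 ± 0.17, adjusted p = 0.000768) and RIPK2, a kinase that binds NGFR, by 1.21 ± 0.07. TRAF6, an adaptor that joins NGFR to NF-kB signalling, rose by 0.46 ± 0.12 (adjusted p = 0.0236). The TRAF6 call was lost without control library 1 or 3 or ENL library 1 (adjusted p = 0.0511 to 0.0911) and with scaling by library totals (0.152). PRDM4, a zinc finger partner of NGFR, fell by 0.64 ± 0.10 on the log2 scale. BEX3, another death-linked partner, was at 2.32 CPM in control and 1.78 in ENL and did not pass (adjusted p = 0.186). On the opposite strand SQSTM1 shares 1582 exon bases with MRNIP and 105 with MGAT4B, TRAF4 490 with AC010761.4 and 287 with AC010761.5, and PRDM4 169 with AC007622.2.

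Adaptors of the Trk receptors went both ways, with 3 of 21 rising and 6 falling (14.3% and 28.6%, against 20.0% and 18.4% of all genes). SHC2, SH2B2 and PLCG1 rose, with log2 fold changes of 2.89 ± 0.37, 1.05 ± 0.18 and 0.75 ± 0.10. SHC2 remained low (0.438 CPM in control and 3.25 in ENL), whereas PLCG1, phospholipase C gamma 1, was at 155 and 262 CPM. PLCG1 shares exon bases with 4 other genes, at most 268 (ZHX3, opposite strand). GRB2, the adaptor that recruits SOS proteins to receptors, fell from 92.3 ± 1.60 to 63.3 ± 2.14 CPM (log2 fold change -0.55 ± 0.07, adjusted p = 0.00158). SOS2, a guanine nucleotide exchange factor for RAS, fell by 0.63 ± 0.16 on the log2 scale (adjusted p = 0.0206), a call that was lost without control library 1, 2 or 3 (adjusted p = 0.0538 to 0.0652).

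Of 24 RAS, MAPK and PI3K genes, 5 rose and 4 fell (20.8% and 16.7%), near the 20.0% and 18.4% of all genes tested. PIK3R1, a regulatory subunit of PI3K, rose from 46.1 ± 4.55 to 143 ± 34.7 CPM (log2 fold change 1.63 ± 0.18, adjusted p = 0.000855), and MAP2K2 from 88.5 ± 3.15 to 149 ± 12.8 CPM (0.75 ± 0.09). MAP2K5, HRAS and MAPK3 rose by 0.62 ± 0.12, 0.50 ± 0.12 and 0.49 ± 0.09. The S6 kinase genes RPS6KA3 and RPS6KA1 fell by 0.70 ± 0.17 and 0.61 ± 0.11 on the log2 scale, and NRAS and MAP2K1 by 0.31 ± 0.09 and 0.29 ± 0.09. Calls were lost without control library 1 or ENL library 2 for RPS6KA3 (adjusted p = 0.0555 to 0.0597), without control library 2 or 3 for HRAS (0.0531 to 0.0682), without control library 1 or 3 or ENL library 1 or 2 for NRAS (0.06 to 0.0965), and without any 1 control library or ENL library 1 or 2 for MAP2K1 (0.082 to 0.138). HRAS was also lost with scaling by library totals (0.0775), and MAP2K1 without a filter (0.0596). MAP2K1 shares 432 exon bases with AC116913.1 and 216 with SNAPC5 on the opposite strand.

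In the cell death arm of NGFR signalling 12 of 15 genes tested did not pass. Rising genes were 13.3% and falling ones 6.67%, against 20.0% and 18.4% of all genes tested. SMPD2, a neutral sphingomyelinase, rose by 0.58 ± 0.13 and the kinase gene MAP3K5 by 0.42 ± 0.12 (adjusted p = 0.0115 and 0.0271), while the JNK gene MAPK9 fell from 44.9 ± 2.50 to 23.8 ± 6.57 CPM (log2 fold change -0.92 ± 0.19, adjusted p = 0.00947). SMPD2 shares 409 exon bases with PPIL6 on the opposite strand. The MAP3K5 call was lost without any 1 control library or ENL library 1 (adjusted p = 0.0642 to 0.0907) and with scaling by library totals (0.218) or the upper quartile (0.0536).

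Genes known to be induced by neurotrophins were divided, with 5 of 12 rising and 4 falling (41.7% and 33.3%, against 20.0% and 18.4% of all genes). ATF3 rose from 17.2 ± 5.35 to 90.6 ± 46.1 CPM (log2 fold change 2.40 ± 0.45, adjusted p = 0.00935) and JUNB from 227 ± 14.8 to 645 ± 80.2 CPM (1.51 ± 0.11). The secretory granule genes SCG2 and VGF rose by 1.15 ± 0.07 and 0.57 ± 0.13, and EGR2 by 1.09 ± 0.25. The classic early genes EGR1 and FOSB fell by 0.38 ± 0.07 and 0.52 ± 0.14 on the log2 scale, as did DUSP6 (0.39 ± 0.08). PLAUR, the urokinase receptor, fell from 169 ± 4.72 to 82.9 ± 14.4 CPM (log2 fold change -1.02 ± 0.13, adjusted p = 0.00132). The FOSB call was lost without control library 1 or 3 or ENL library 1 (adjusted p = 0.0564 to 0.0894). JUNB shares 259 exon bases with HOOK2, and DUSP6 1875 with AC024909.2, on the opposite strand.

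**Figure D4:**
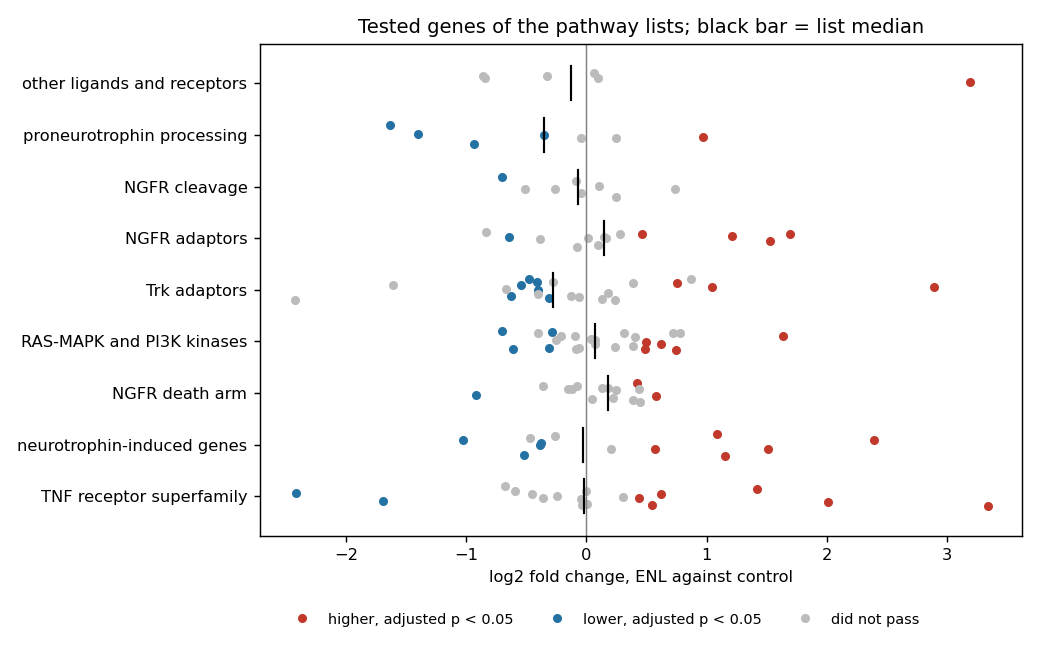
Log2 fold change (x axis, ENL against control) of each tested gene in the 8 pathway lists and in the tumour necrosis factor receptor superfamily (rows), red where higher and blue where lower at an adjusted p below 0.05, grey where not passed, with a black bar at the list median. Proneurotrophin processing has the lowest median, -0.36, and every list has genes on both sides of 0.

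NGFR was also set beside its relatives in the tumour necrosis factor receptor superfamily. Of 28 other family genes 18 were tested, of which 6 rose and 2 fell (33.3% and 11.1%, against 20.0% and 18.4% of all genes). The death receptor gene FAS rose most, from 14.9 ± 4.62 to 151 ± 43.6 CPM (log2 fold change 3.34 ± 0.31, adjusted p = 0.000675), and TNFRSF1B by 1.42 ± 0.20. TNFRSF10D, a decoy receptor gene, fell from 60.6 ± 1.92 to 11.3 ± 0.896 CPM (-2.42 ± 0.10) and TNFRSF11B, osteoprotegerin, by 1.69 ± 0.26 on the log2 scale. The log2 fold change of NGFR, 5.06, was above the highest of the 18, that of FAS. FAS shares 380 exon bases with ACTA2 on the opposite strand.

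By the measure of likeness to NGFR over the 6 libraries, the nearest genes were H2AC6, AL031777.2 and KRT83. The measure is the root mean square difference from NGFR in log2 CPM centred on the control mean, and it was 0.291 for H2AC6 and 0.296 for AL031777.2. It mostly picks genes of similar log2 fold change (4.71 for H2AC6 and 5.17 for AL031777.2, against 5.06 for NGFR). That is the contrast on which the members were chosen, so shared regulation cannot be read from it. H2AC6, a histone gene, was at 3.13, 3.57 and 4.14 CPM in control and 99.0, 103 and 82.3 in ENL. AL031777.2 averaged 0.138 CPM in control, about 3 fragments a library, and 5.01 in ENL. KRT83, a hair keratin gene, was at 0 in all control libraries and averaged 0.962 CPM in ENL, so its place rests on the prior count added before taking logs and is no measure of likeness to NGFR.

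Because NGFR also marks neural crest and Schwann cells, their other markers were read beside it. The summed level of 7 such genes was 10.2 to 12.5 CPM over the control libraries and 14.8 to 18.8 CPM over the ENL libraries. Of the 4 that could be tested 1 rose, the transcription factor gene FOXD3, from 2.74 ± 0.497 to 8.92 ± 0.839 CPM (log2 fold change 1.70 ± 0.18, adjusted p = 0.000696). S100B was at 0 in all 6 libraries, and SOX10, the defining factor of the lineage, averaged 0.0760 CPM in control and 0.117 in ENL. The part of such cells in the level of NGFR was not tested.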

How the data were processed

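RNA sequencing of 6 BT549 libraries, 3 control and 3 ENL, was read from 1 deposited table. The authors' values are an estimated count per gene symbol in whole numbers, which needed no rounding, and 70.8% to 73.1% of values from 4 to 43 were a multiple of 4 or 1 above. Per the submitters' processing notes, FastQC, STAR, StringTie, DESeq2 and hg38 were used, with no versions or roles, and no source used here describes the counting or its use of strand.

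After filterByExpr (minimum count 10) and TMM scaling, edgeR 4.0.16 (robust glmQLFit and glmQLFTest; R 4.3.3) tested each gene two-sided on the group alone, with Benjamini-Hochberg adjustment over 14086 genes and a threshold of 0.05. Alternatives used limma 3.58.1 and DESeq2 1.42.0. The procedure was also run on simulated data in which few genes changed, in random directions, whereas 38.4% of genes were called here. Those runs therefore cannot judge the scaling of these libraries. No 2 libraries agreed within sampling noise (chi-square per degree of freedom at least 21.2). If the libraries of a group are not separate cultures, p-values measure technical spread only. Positions, exon overlaps and lengths are from GENCODE 29 (GRCh38), which held 98.1% of the symbols, and promoters are from RefSeq.

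The members and lists were chosen with earlier results of these data known. Named genes are the members, NTF4, SORL1, SORCS2, KIDINS220, BEX3 and TRAF6, for each list and direction the 2 called genes of largest log2 fold change (mean of 5 CPM or more in 1 group, no overlap of the groups), and the 3 genes most like NGFR. Some pathway genes are not reported here and are left out of the lists and their counts.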

Additional observations from a re-analysis of the deposited data

How the results depend on the processing

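The 15 alternative settings changed the scaling (size factors of DESeq2, upper quartile, totals only), the test (Wald test of DESeq2, limma-voom), the filter (none, or 1 CPM in 3 libraries) or the unit (counts divided by 4), added the replicate block, or left out 1 library. With totals only, 1804 of all genes were called higher and 3996 lower, against 2819 and 2585, and NGFR was at 4.85. With 1 library left out, NGFR ranged from 4.93 to 5.19, pathway genes called higher from 16 to 23 and called lower from 11 to 26, and all genes called higher from 2072 to 3156 and lower from 1743 to 2877. The replicate block gave 17 higher and 19 lower pathway genes against 21 and 21, and 5.07 for NGFR. Deviations of libraries with the same number correlated by only 0.03, 0.05 and 0.08. Of the 6 libraries all but ENL library 1 correlated best with their own number. These values are weak and do not settle whether the numbers pair the libraries. With the block 6 named genes lost their call (TRAF6, MAP3K5, RTN4R, MMP3, PCSK6 and MAP2K1). Of 759 values for the 51 other named genes, 692 kept their direction and side of the threshold, 57 lost the call, 1 gained it and 9 changed sign, none of them past the threshold: NTF4 with library totals (-0.10) and without control library 2 (-0.23), control library 3 (-0.18) or ENL library 3 (-0.14), SORL1 without control library 2 (0.10), and SORCS2 with the upper quartile (-0.02), library totals (-0.14) and without control library 2 (-0.16) or ENL library 1 (-0.16). With 1 library left out these ranged from -0.23 to 1.02 for NTF4, from -1.20 to 0.10 for SORL1 and from -0.16 to 0.28 for SORCS2. The filter at 1 CPM left NTRK2 and NTRK3 untested. Depth limits NTRK2, NTRK3 and NTF3.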
